A study of Mus musculus with 30 samples.

Results

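The lymph nodes of Tg26 mice with lymphoma were compared with those of asymptomatic Tg26 mice on Affymetrix Mouse Gene 1.0 ST arrays. The arrays were chosen by the state and tissue in their labels, which gave 6 lymphoma nodes and 6 asymptomatic nodes, 12 of the 30 arrays of the series. Tg26 mice carry a transgenic HIV-1 provirus, pNL4-3, from which part of gag-pol is missing, so that no infectious virus is made. Mice of both groups were heterozygous for it on the FVB/N background, came from a colony bred from heterozygotes with skin lesions, and were killed at 5 to 12 months, with no age or sex given per mouse. Each mouse gave 1 node array and 1 spleen array. In each group, mice 1 to 3 were in batch A and mice 4 to 6 in batch B, as the labels call them. The labels do not say which lymph node was taken, whether nodes were pooled, or how much of a node was tumour. The study's question was which genes and pathways go with B cell lymphoma in these animals. The nodes of 3 FVB/N mice, which lack the provirus and were all in batch A, entered the model and are given only as a further level for single genes.

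B cells arise in the bone marrow, where precursors cut and rejoin their immunoglobulin gene segments with the recombinase made by Rag1 and Rag2. Before a light chain exists, the proteins of Igll1 and the Vpreb genes take its place in the precursor's receptor, the pre-B cell receptor. Mature B cells have left this programme, present antigen on MHC class II and settle in lymph node follicles, next to T cell zones and within a frame of reticular stroma, lymphatic sinuses and high endothelial venules.

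Promoters were read for the list of V(D)J recombination and surrogate light chain genes, because its members led the rises. RefSeq sequences (GRCm38.p6) were found for 14 of its 15 measured genes, in 16 windows of 250 bases before a gene's start. The windows of the list's members with the largest differences are shown 5′ to 3′, with each match to the E-box letters CAGNTG, on either strand, in capitals.
Igll1, chr16:16863986-16864235 (minus strand): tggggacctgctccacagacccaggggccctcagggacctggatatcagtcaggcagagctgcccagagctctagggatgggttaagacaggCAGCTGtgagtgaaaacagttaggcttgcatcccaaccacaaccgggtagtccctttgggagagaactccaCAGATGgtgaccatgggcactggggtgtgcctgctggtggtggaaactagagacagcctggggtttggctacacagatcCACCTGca
Rag1, chr2:101649533-101649782 (minus strand): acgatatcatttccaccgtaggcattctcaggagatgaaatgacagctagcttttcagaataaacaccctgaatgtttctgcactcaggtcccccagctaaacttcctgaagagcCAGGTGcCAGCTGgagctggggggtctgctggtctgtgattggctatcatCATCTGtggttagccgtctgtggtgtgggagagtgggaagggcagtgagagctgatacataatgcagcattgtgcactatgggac
Vpreb3, chr10:75948050-75948299 (plus strand): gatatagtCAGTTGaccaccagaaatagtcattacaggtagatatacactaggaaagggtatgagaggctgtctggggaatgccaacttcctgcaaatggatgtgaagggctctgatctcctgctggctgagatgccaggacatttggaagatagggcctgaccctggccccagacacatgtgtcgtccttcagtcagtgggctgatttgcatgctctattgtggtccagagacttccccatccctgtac
The E-box letters, which the E2A family of factors can bind, stood in 8 of the 16 windows, against 44.8% of 32851 promoters of the same length. Igll1 and Rag1 had 3 matches each and Vpreb3 had 1, against a mean of 0.62 per promoter. A palindromic EBF-type motif was searched too, on both strands, and was found in 0 of the 16 windows and in 0.779% of all promoters.

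Several arrays stood apart from their group, and most of the signal from neighbouring tissue was in the asymptomatic group. A list of 20 adipose genes averaged 6.13 to 6.77 on the log2 scale in the lymphoma nodes, against 9.12 to 10.70 in asymptomatic mice 2 to 5 and 7.02 and 7.26 in asymptomatic mice 1 and 6. Exocrine pancreas genes averaged 5.75 to 5.93 in the lymphoma nodes, against 11.41 and 12.94 in asymptomatic mice 5 and 6 and 5.68 to 6.02 in the other asymptomatic nodes. Salivary gland genes averaged 6.79 in lymphoma mouse 5 and 5.33 to 5.46 in the other lymphoma nodes, against 7.45 and 8.33 in asymptomatic mice 2 and 3 and 5.58 to 6.00 in the rest. Asymptomatic mouse 6 also had a node erythroid mean of 9.55, where the other 11 nodes had 6.22 to 7.54. Its node levels of Spic and Slc40a1 (10.33 and 11.32) were above those of every asymptomatic spleen. These 2 genes averaged 9.11 and 9.88 in asymptomatic spleens, against 8.72 and 8.18 in asymptomatic nodes. In FVB/N mice they averaged 7.74 and 7.58 in spleen, against 8.04 and 7.20 in node. Asymptomatic mouse 1 had little stromal signal in its node, which correlated with the lymphoma nodes (mean r = 0.925) as it did with its own group (mean r = 0.926). Lymphoma mice 3 and 5 carried Xist, the transcript of the silenced X chromosome (11.93 and 10.91), and lacked Y-linked transcripts, while the other 4 lymphoma mice and all 6 asymptomatic mice had Xist at 4.67 to 5.75. Glycam1, a high endothelial venule product that marks lymph node, stood at 5.80 to 8.80 (median 6.67) in the lymphoma nodes, against 8.22 to 11.73 (median 11.18) in the asymptomatic nodes. Spleens lay between 5.48 and 6.07, so the lowest lymphoma node was within the spleen range.

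**Figure D1:**
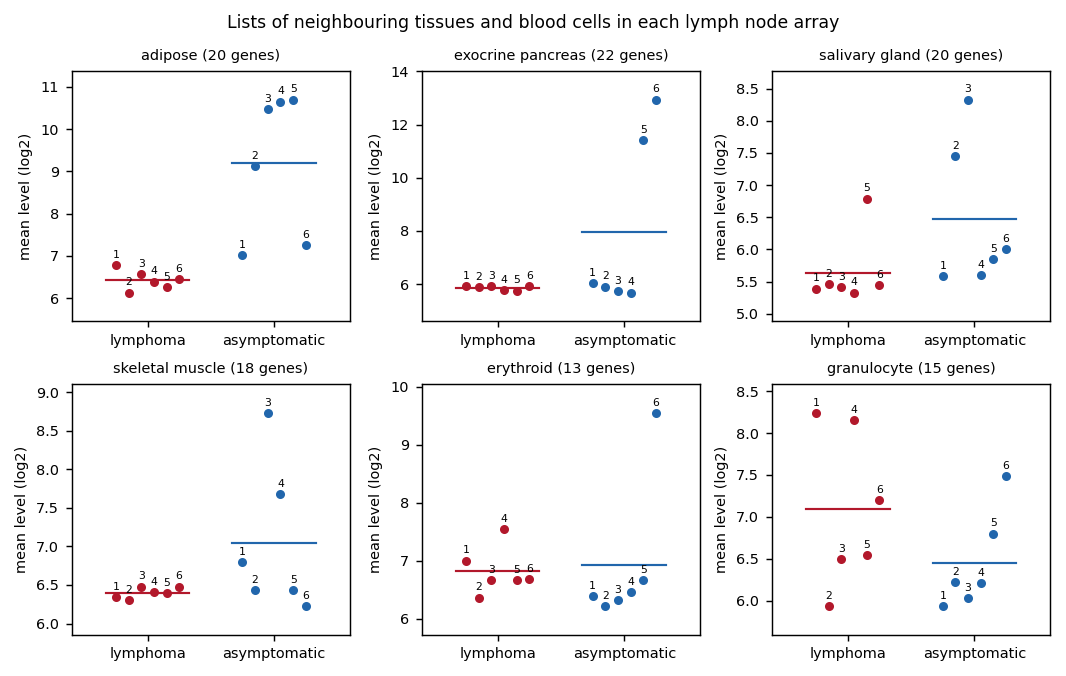
Mean level (log2) of 6 lists of neighbouring tissues and blood cells, with 1 point per lymph node array numbered by mouse and a line at the group mean, lymphoma left and asymptomatic right. Adipose means are above 9 only in asymptomatic mice 2 to 5, pancreas means above 11 only in asymptomatic mice 5 and 6, and the erythroid mean of asymptomatic mouse 6 stands at 9.55.

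Of 19938 genes, 4800 (24.1%) differed between lymphoma and asymptomatic nodes at an adjusted p under 0.05, 2317 of them higher in lymphoma (11.6%) and 2483 lower (12.5%). Differences are log2 lymphoma minus asymptomatic from a linear model (limma) with 6 surrogate variables, which are unnamed sources of variation estimated from the arrays, and p-values are adjusted over all genes. A difference of at least 1 log2 unit, a 2-fold change, was reached by 723 genes that rose and 798 that fell. In 2162 genes (10.8%) the 6 lymphoma nodes did not overlap the 6 asymptomatic nodes in measured level. In 125 of the 4800 called genes the fitted difference had the opposite sign to the measured one. With batch in place of the surrogate variables, on the 12 node arrays alone, 5360 genes were called (2571 higher, 2789 lower). Of the 4800, 3389 were called in that fit with the same sign. In whole-tissue RNA, fewer cells of a type and less RNA per cell cannot be told apart, and this holds for every difference given here. With batch and the adipose, salivary and pancreas means as covariates in place of the surrogate variables, 965 genes were called (527 higher, 438 lower). This fit also held the 12 node arrays alone, and list counts from it are given with the results on stroma. Within batches A and B, with 3 nodes a group, the counts were 1380 (740 higher, 640 lower) and 2993 (1339 higher, 1654 lower).

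The 12 largest rises ranged from 3.51 to 5.24 log2 units and the 12 largest falls from 3.33 to 4.64 units in size, among called genes whose levels did not overlap between the groups. The rises held parts of the pre-B cell receptor and recombinase (Igll1, Rag1, Vpreb3), the precursor surface protein Cd93 and the adhesion receptor Adgrg1, besides Drc7, Ptgr1, Lhfpl1, Cdhr2, Gas2l3, Tmem255a and Hmgcll1. Lhfpl1 differed by 4.0, and by 2.64, 2.55 and 2.65 without the node of asymptomatic mouse 6, lymphoma mouse 3 or lymphoma mouse 5. Without node and spleen of both these lymphoma mice it differed by 1.78, while the single-mouse fits kept the spleens. The falls held T cell genes (Cd3g, Cd3d, Trat1, Prkcq, Ms4a4b, Dapl1), the MHC class II chain H2-Ea, the dendritic cell actin bundler Fscn1, the sinus macrophage lectin Cd209b, and 3 genes of the adipose list (Ucp1, Fabp4, Car3).

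**Figure D2:**
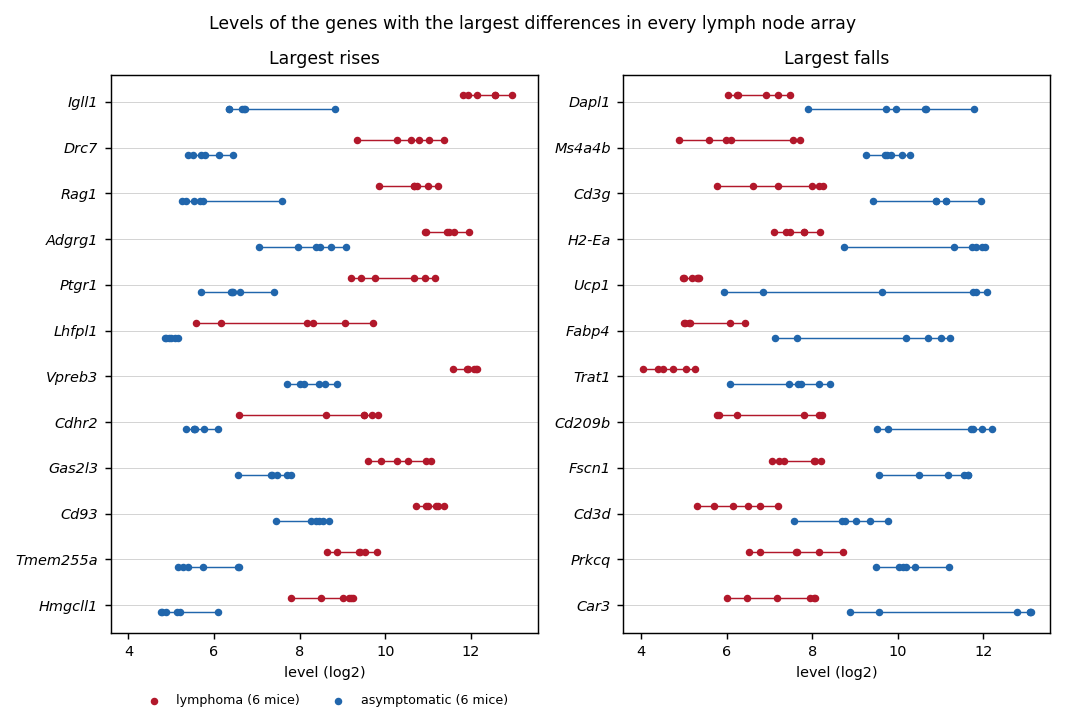
Level (log2) of the 12 largest rises and 12 largest falls in each of the 12 lymph node arrays, with lymphoma above asymptomatic for each gene and a bar over the range of 6 mice. The ranges do not overlap in any of these 24 genes. Lhfpl1 and Cdhr2 spread widely among the lymphoma nodes, and Ucp1, Fabp4 and Car3 among the asymptomatic nodes.

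Igll1, the constant-like part of the surrogate light chain, had levels of 11.82 to 12.95 (median 12.35) in the lymphoma nodes, against 6.35 to 8.82 (median 6.67) in the asymptomatic nodes, a difference of 5.24 (SE 0.39, adjusted p = 1.9e-09), or 37.8-fold. Every lymphoma node was above every asymptomatic node, and the 3 FVB/N nodes averaged 7.05. Rag1, the catalytic part of the recombinase, had 9.85 to 11.22 (median 10.70) in the lymphoma nodes, against 5.24 to 7.59 (median 5.59), a difference of 4.44 (SE 0.42, adjusted p = 4.53e-08). Its partner Rag2 had 6.38 to 8.42 (median 7.46) against 3.74 to 4.51 (median 4.31), a difference of 2.72 (SE 0.29, adjusted p = 3.27e-07). Both recombinase genes thus rose in all 6 lymphoma nodes. Vpreb3, which binds surrogate and free light chains inside the cell, had 11.57 to 12.15 (median 11.99) in the lymphoma nodes, against 7.71 to 8.88 (median 8.27) in the asymptomatic nodes, a difference of 3.86 (SE 0.19, adjusted p = 8.09e-12).

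Of the 15 measured genes of the recombination list, 10 rose, 1 fell and 4 were not called, against 11.6% and 12.5% of all genes, with a median difference of 1.45 against -0.02 over all genes. Vpreb1 rose by 2.77 (SE 0.25, adjusted p = 2.78e-08) and its close copy Vpreb2 by 1.76 (SE 0.27, adjusted p = 3.34e-05), and since the sequences of these copies are nearly the same, their probe sets may share signal. Xrcc6, the Ku70 end-binding protein, rose by 1.45 (SE 0.23, adjusted p = 4.43e-05), the ligase gene Lig4 by 0.67 (SE 0.17, adjusted p = 0.00543, but 0.57 with adjusted p = 0.0658 without asymptomatic mice 1 and 6), and the DNA-bending genes Hmgb1 and Hmgb2, which help the recombinase, by 1.17 and 1.67. Xrcc4, the partner of Lig4, was the member called lower (-0.41, adjusted p = 0.0132), and it was called in 2 of the 12 fits that left out 1 array. Dntt, the enzyme that adds untemplated bases at joints, had 5.30 to 7.08 (median 5.42) in the lymphoma nodes, against 5.18 to 5.84 (median 5.54) in the asymptomatic nodes, with 0.52 as the fitted difference (adjusted p = 0.582). Lymphoma mice 1 and 3 (6.43 and 7.08) were above every asymptomatic node for Dntt, and the other 4 lymphoma nodes, at 5.30 to 5.46, lay within the asymptomatic range. Leaving out each array in turn kept 10 members higher in all 12 repeats.

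The node of asymptomatic mouse 4 was the highest asymptomatic node for 8 of the 12 largest rises. It had Igll1 at 8.82, where the other asymptomatic nodes had 6.35 to 6.73, and Rag1 at 7.59, where they had 5.24 to 5.73. Hmgcll1 stood at 6.10 there, against 4.75 to 5.21 in the others. The mean of the recombination list was 7.71 in this node, between the 9.01 to 9.35 of the lymphoma nodes and the 7.10 to 7.36 of the other asymptomatic nodes. The spleen of the same mouse had Igll1 at 6.60, where the other asymptomatic spleens had 6.34 to 6.71, and Rag1 at 5.40, where they had 5.57 to 5.79. Without this mouse the difference of Igll1 was 6.11 and that of Rag1 5.15.

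Of 19 progenitor regulators and precursor surface markers, 11 rose and 5 fell, against 11.6% and 12.5% of all genes, with a median difference of 0.99. Cd93, a surface protein of immature B cells, had 10.72 to 11.37 (median 11.09) in the lymphoma nodes, against 7.45 to 8.68 (median 8.42) in the asymptomatic nodes, a difference of 3.64 (SE 0.23, adjusted p = 2.89e-10). Myb, a transcription factor of blood progenitors, had 10.84 to 11.28 (median 11.05), against 7.27 to 8.13 (median 7.52), a difference of 3.42 (SE 0.23, adjusted p = 3.87e-10). The chromatin gene Cecr2 had 10.01 to 10.56 (median 10.44) in the lymphoma nodes, against 6.92 to 8.11 (median 7.30), a difference of 3.28 (SE 0.25, adjusted p = 2.08e-09). The groups did not overlap in any of these 3 genes. Erg, an ETS factor of stem cells, progenitors and endothelium, rose by 2.22 (SE 0.27, adjusted p = 1.64e-06), and Smarca4, the motor of the SWI/SNF chromatin remodeller, by 1.42 (SE 0.12, adjusted p = 9.62e-09). Sox4, a factor of B precursors, and Cd24a, the heat stable antigen, rose too, by 2.14 and 2.45. Not all precursor genes moved this way. Flt3, the receptor of early lymphoid progenitors, which dendritic cells also carry, differed by -1.16 (SE 0.19, adjusted p = 5.52e-05). Cd34 (-1.02), Ly6d (-0.83), Lef1 (-0.91) and Spn (-0.79) were the other members called lower. Cd34 lost its call on leaving out asymptomatic mouse 1, 2, 4 or 5, or else lymphoma mouse 2 or 4 (-0.99 to -0.82), and Ly6d without asymptomatic mouse 1, 2 or 4 (-0.86 to -0.62). Lef1 was at 0.19 with batch in place of the surrogate variables, and Spn at 0.10 within batch B. Il7r, the interleukin-7 receptor of B precursors and resting T cells, had 10.63 to 12.00 (median 11.61) in the lymphoma nodes, against 9.31 to 11.34 (median 10.41), with overlapping groups, and was not called (difference 0.47, adjusted p = 0.186). It was called higher by 1.09 with batch in place of the surrogate variables (adjusted p = 0.00198), also with no covariate, the replicate block or mouse as a random effect, by 1.26 within batch B (adjusted p = 0.0431), by 0.57 without dim genes (adjusted p = 0.0281) and by 0.61 without lymphoma mouse 4 (adjusted p = 0.0141). Without asymptomatic mice 1, 2 or 4 in turn, 3 members were called lower.

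Among 17 factors of B cell identity, 5 rose and 3 fell, against 11.6% of all genes higher and 12.5% lower. The median difference was -0.06. Ebf1, which starts the B lineage programme, had 11.54 to 12.08 (median 11.76) in the lymphoma nodes, against 10.12 to 11.17 (median 10.42) in the asymptomatic nodes, a difference of 1.43 (SE 0.17, adjusted p = 1.29e-06). Pou2af1, the B cell coactivator OBF-1, had 11.15 to 11.69 (median 11.38), against 9.62 to 10.45 (median 10.05), a difference of 1.48 (SE 0.12, adjusted p = 3.96e-09). Pax5, which fixes B cell identity, rose by 1.07 (SE 0.19, adjusted p = 0.000136), with overlapping levels of 10.20 to 11.12 (median 10.45) and 8.89 to 10.49 (median 9.53). Spi1 (PU.1), a factor of B and myeloid cells, was called higher by 1.10 (adjusted p = 0.000246) but by 0.55 (adjusted p = 0.0561) without asymptomatic mice 1 and 6. Signalling parts of the B cell receptor moved in part with these factors, as 8 of 20 rose and 3 fell, against the same shares of all genes. Btk, the kinase below the receptor, had 9.85 to 10.59 (median 10.31) in the lymphoma nodes, against 8.51 to 9.69 (median 8.73), a difference of 1.65 (SE 0.15, adjusted p = 1.94e-08). The adaptor Blnk rose by 1.62 (SE 0.15, adjusted p = 2.48e-08), the phosphatase Inpp5d by 1.22 (SE 0.11, adjusted p = 2.45e-08), and the receptor chain Cd79b by 1.10 (SE 0.12, adjusted p = 5.11e-07). Rasgrp3, which links the receptor to Ras, went the other way, with 6.33 to 7.87 (median 7.04) against 9.70 to 10.46 (median 9.95) and no overlap, a difference of -2.44 (SE 0.33, adjusted p = 7.57e-06). Malt1, of the path from this receptor to NF-kB, differed by -0.98 (SE 0.24, adjusted p = 0.0034). With the tissue covariates, 1 member of the receptor list was called higher and 2 lower.

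Receptors of mature B cells were mostly lower. Of 22 measured, 12 fell and 3 rose, with a median of -0.91, and the mean of the list was 8.34 to 9.06 in the lymphoma nodes, against 9.35 to 10.06 in the asymptomatic nodes. Ms4a1 (CD20) had 7.77 to 9.96 (median 8.74), against 10.59 to 11.86 (median 11.12), a difference of -1.83 (SE 0.41, adjusted p = 0.0017). Cr2, the complement receptor of follicular and marginal zone B cells and of follicular dendritic cells, had 6.71 to 7.99 (median 7.41) in the lymphoma nodes, against 9.65 to 11.53 (median 9.80), a difference of -1.99 (SE 0.37, adjusted p = 0.000261). Cd40, through which T cells help B cells, had 7.99 to 8.36 (median 8.09), against 9.13 to 9.79 (median 9.52), a difference of -1.21 (SE 0.22, adjusted p = 0.000184). In these 3 genes every lymphoma node was below every asymptomatic node. Fcer2a (CD23) spread from 5.73 to 10.23 in the lymphoma nodes and 10.29 to 11.18 in the asymptomatic nodes. Its difference was -1.81 (adjusted p = 0.00627), and it was -1.79 (adjusted p = 0.0823) without asymptomatic mouse 1, and -3.14 without asymptomatic mouse 6, -3.11 without lymphoma mouse 3 and -3.05 without lymphoma mouse 5. The homing receptor Ccr6 differed by -0.95 (SE 0.16, adjusted p = 7.46e-05), and by -1.98, -1.96 and -1.68 without lymphoma mouse 5, asymptomatic mouse 6 and lymphoma mouse 3. Fcgr2b, the inhibitory Fc receptor, was higher by 1.17 (adjusted p = 0.0321), a call lost without asymptomatic mouse 1 (1.41, adjusted p = 0.0571).

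Genes of germinal centres, where B cells mature after antigen, rose in 0 of 13 cases and fell in 6, with a median difference of -0.23. Fas, the death receptor raised on germinal centre B cells, had 5.47 to 6.60 (median 6.17) in the lymphoma nodes, against 7.26 to 8.11 (median 7.48), a difference of -1.84 (SE 0.15, adjusted p = 8.03e-09). Basp1 had 7.90 to 8.59 (median 8.26), against 9.12 to 10.25 (median 9.93), a difference of -1.62 (SE 0.17, adjusted p = 2.45e-07). Efnb1 differed by -0.69 (SE 0.13, adjusted p = 0.000435), and Bcl6 and Gcsam, also called, lost their calls without asymptomatic mouse 1. Rgs13, a brake on chemokine signals in germinal centre cells, had 4.03 to 5.21 (median 4.20) in the lymphoma nodes, against 5.69 to 7.96 (median 7.43), and its call (-2.16, adjusted p = 0.0018) was lost without asymptomatic mouse 1 (-0.90, adjusted p = 0.157). The list then had 3 members called lower. Of 18 plasma cell genes, 3 rose and 2 fell, near the shares of all genes (11.6% and 12.5%). Mzb1, an endoplasmic reticulum protein of B and plasma cells, was the largest, at 10.70 to 11.19 (median 10.86) in the lymphoma nodes, against 8.13 to 9.70 (median 8.59), a difference of 2.65 (SE 0.21, adjusted p = 3.06e-09). The 13 members that were not called ranged from -0.25 to 0.91. Cd28, which plasma cells share with T cells, was lower with the T cell genes (-2.74). The median of the list was 0.50 in the model and -0.15 in measured levels, and 8 members were called higher without asymptomatic mouse 2.

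MHC class II genes, by which B cells and dendritic cells show peptides to CD4 T cells, were lower in 8 of 11 cases and higher in 0, with a median of -0.88. H2-Ea had 7.10 to 8.19 (median 7.64) in the lymphoma nodes, against 8.75 to 12.03 (median 11.78), a difference of -3.81 (SE 0.65, adjusted p = 0.000109). The lowest asymptomatic value belonged to mouse 5, and the others lay between 11.32 and 12.03. H2-Eb1 had 7.15 to 7.78 (median 7.44), against 8.27 to 11.57 (median 10.29), a difference of -2.96 (SE 0.58, adjusted p = 0.000544), and the FVB/N nodes averaged 9.40 for H2-Ea and 8.29 for H2-Eb1, below the asymptomatic medians. Ciita, the transactivator of the class, had 6.22 to 8.53 (median 7.53), against 8.84 to 10.18 (median 9.30), a difference of -1.18 (SE 0.21, adjusted p = 0.000167). It was -1.90 without asymptomatic mouse 6 and -1.89 without lymphoma mouse 5. Cd74, the invariant chain, had 10.61 to 11.98 (median 11.29), against 12.49 to 12.98 (median 12.68), a difference of -0.88 (SE 0.17, adjusted p = 0.000459), and -1.40 and -1.34 without those mice in turn. Of 12 class I loading and immunoproteasome genes, 5 were lower, with a median of -0.32, and 2 and 3 members called lower without asymptomatic mouse 6 and lymphoma mouse 5.

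**Figure D3:**
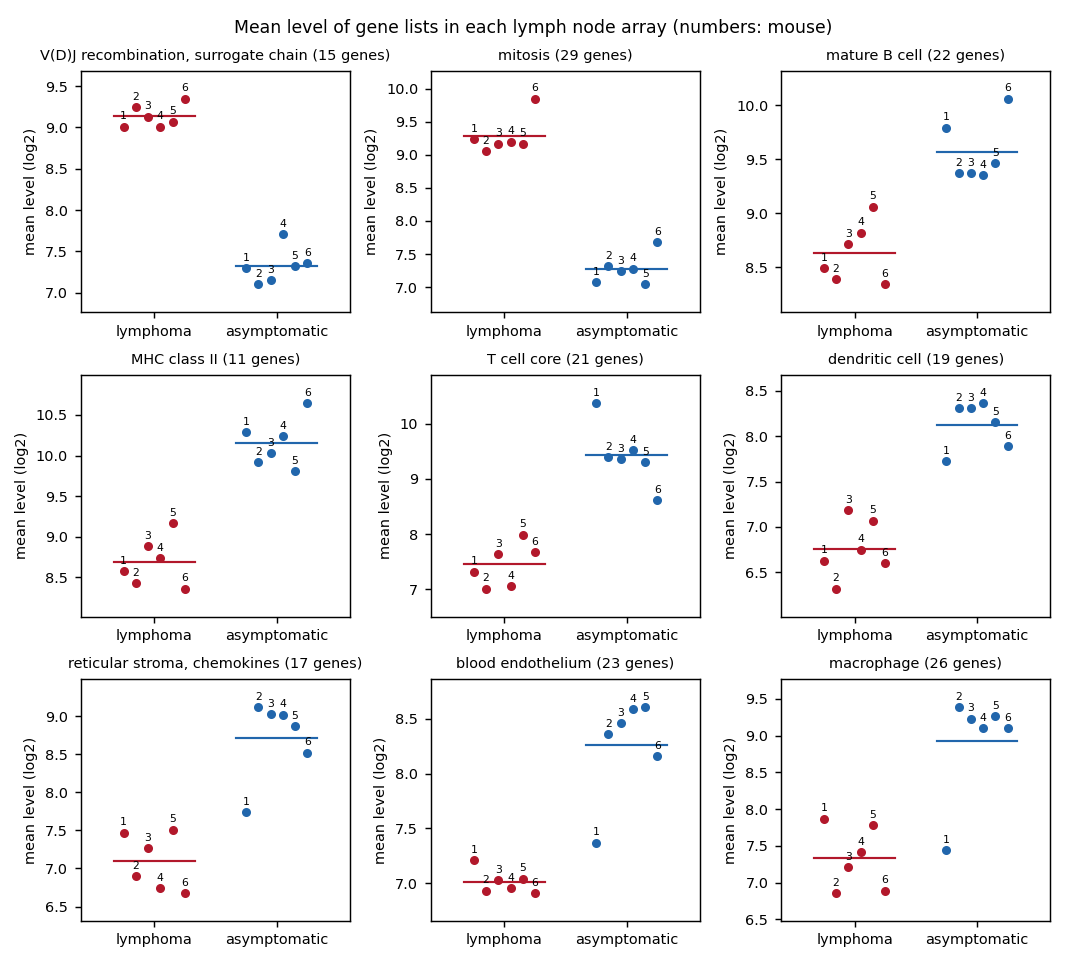
Mean level (log2) of 9 gene lists in each lymph node array, numbered by mouse, with lymphoma left, asymptomatic right and a line at each group mean. The groups are apart in all lists shown except the macrophage list, where asymptomatic mouse 1 (7.44) lies among the lymphoma nodes (6.86 to 7.87), and asymptomatic mouse 1 is nearest to the lymphoma nodes in the reticular stroma and endothelium lists.

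Cell division genes rose together in the lymphoma nodes. All 29 mitosis and spindle genes were called higher, with a median difference of 2.42, and 28 of them did not overlap between the groups, against 5.04% of all genes. The list mean was 9.05 to 9.85 in the lymphoma nodes, against 7.04 to 7.68 in the asymptomatic nodes, and lymphoma mouse 6 had the highest value. Bub1b, a spindle checkpoint kinase, had 9.42 to 10.25 (median 9.59), against 6.99 to 7.51 (median 7.36), a difference of 2.65 (SE 0.23, adjusted p = 1.26e-08). Aurkb, the kinase of the chromosomal passenger complex, rose by 2.50, the cyclin Ccnb2 by 2.88, and the anaphase activator Cdc20 by 1.95 (SE at most 0.21, largest adjusted p = 1.21e-08). The differences ran from 1.06 in Spc24 to 3.07 in Bub1, both kinetochore genes. Of 27 DNA replication genes, 25 rose and 0 fell, with a median of 1.43, and the 2 that were not called had 0.26 and 0.33. Gins1, of the replicative helicase, had 7.97 to 8.92 (median 8.33) in the lymphoma nodes, against 5.74 to 6.73 (median 6.33), a difference of 2.35 (SE 0.20, adjusted p = 1.22e-08). Its helicase partners Mcm6 and Mcm3 rose by 1.95 and 1.45, and the leading-strand polymerase Pole by 1.81 (SE at most 0.19, largest adjusted p = 7.59e-08).

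Enzymes that make nucleotides rose in 15 of 21 cases. Rrm2, the inducible part of ribonucleotide reductase, had 10.20 to 10.92 (median 10.54), against 8.0 to 9.13 (median 8.22), a difference of 2.75 (SE 0.26, adjusted p = 5.41e-08), and Tyms, which makes thymidylate, had 9.06 to 10.16 (median 9.49), against 7.06 to 7.87 (median 7.49), a difference of 2.21 (SE 0.23, adjusted p = 2.16e-07). Rrm1 and Dut rose by 1.75 and 0.90. The purine enzymes Ppat and Gmps rose by 0.63 and 0.65, and the 6 members that were not called ranged from -0.11 to 0.39. Of 17 genes of homologous recombination and mismatch repair, 16 rose, with a median of 1.44. Chek1, the kinase that answers stalled replication, had 8.39 to 8.99 (median 8.57) in the lymphoma nodes, against 5.86 to 6.34 (median 6.22), a difference of 2.62 (SE 0.24, adjusted p = 2.96e-08). The helicase Blm rose by 2.00, the Fanconi gene Fancd2 by 1.94 and the exonuclease Exo1 by 1.89 (SE at most 0.21, largest adjusted p = 3.26e-07).

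Of 21 cyclins, their kinases, E2F factors and inhibitors, 12 rose. Ccna2, the S and G2 phase cyclin, had 10.49 to 11.18 (median 10.68), against 8.07 to 9.04 (median 8.59), a difference of 2.84 (SE 0.27, adjusted p = 5.63e-08), and E2f8, which switches off E2F targets late in S phase, had 9.15 to 9.94 (median 9.47), against 6.52 to 8.48 (median 7.05), a difference of 2.91 (SE 0.26, adjusted p = 1.57e-08). Cdk2 and its activator Cdc25a rose by 1.22 and 1.45 (SE at most 0.12, largest adjusted p = 3.22e-08), and the cyclin Ccnd3 by 0.89. Ribosome biogenesis and Myc family genes rose in 11 of 26 cases, with a median of 0.37 and differences of at most 0.84, and 5 members were called without asymptomatic mouse 4. Myc itself was not called (0.07, adjusted p = 0.876), but was called higher with batch in place of the surrogate variables (0.55, adjusted p = 0.0463). The nucleolar genes Nop58 and Wdr12 rose by 0.68 and 0.74 (SE at most 0.16, largest adjusted p = 0.0017). Among 20 regulators of histone and DNA methylation 6 rose and 3 fell, against 11.6% and 12.5% of all genes. Ezh2, the Polycomb methyltransferase of dividing cells, had 10.07 to 11.10 (median 10.91) in the lymphoma nodes, against 8.66 to 9.33 (median 8.93), a difference of 1.80 (SE 0.17, adjusted p = 3.82e-08), while its counterpart Ezh1 differed by -0.58 (SE 0.10, adjusted p = 0.000117). Uhrf1 and Hells, which keep DNA methylation through replication, rose by 2.27 and 1.71, and the methyltransferase Dnmt1 by 0.70. Kdm6a, an X-linked histone demethylase, was among the 6, with 9.92 and 10.01 in lymphoma mice 3 and 5, which carried Xist, and 8.62 to 9.21 in the other lymphoma nodes, against 8.80 to 9.30 in the asymptomatic nodes.

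Among 22 apoptosis and p53 target genes, 4 rose and 2 fell, a total near the background share of 24.1%. Bcl2, the guardian of resting lymphocytes, had 8.09 to 8.70 (median 8.22) in the lymphoma nodes, against 9.21 to 10.20 (median 9.48), a difference of -1.65 (SE 0.17, adjusted p = 1.24e-07), with no overlap. Bmf, a BH3-only antagonist of such guardians, had 8.86 to 10.04 (median 9.11), against 7.74 to 8.13 (median 8.05), a difference of 1.43 (SE 0.16, adjusted p = 4.49e-07). The pore gene Bak1 rose by 0.65 and the apoptosome gene Apaf1 by 0.81 (SE at most 0.14, largest adjusted p = 0.000186). The 16 members that were not called ranged from -0.57 to 0.84, and 4 members were called lower without lymphoma mouse 2.

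Most T cell genes were lower. Of 21 genes of the T cell receptor complex and its signalling, 18 fell, with differences of -3.92 to -1.66, and 1, the phosphatase Ptpn7, was called higher (0.50, adjusted p = 0.00488), a call lost without asymptomatic mouse 4 (0.41, adjusted p = 0.0541). The list mean was 7.01 to 7.99 in the lymphoma nodes, against 8.61 to 10.38 in the asymptomatic nodes, where mouse 1 was highest and mouse 6 lowest. Cd3g, a chain of CD3, had 5.77 to 8.25 (median 7.59), against 9.43 to 11.94 (median 11.00), a difference of -3.92 (SE 0.46, adjusted p = 9.91e-07). Cd4 and Cd8a, the coreceptors of helper and cytotoxic T cells, were both lower. Cd4 had 6.40 to 8.65 (median 7.73) in the lymphoma nodes, against 10.21 to 11.41 (median 11.03), a difference of -3.31 (SE 0.35, adjusted p = 2.18e-07). Cd8a had 6.58 to 8.16 (median 7.35), against 9.18 to 10.64 (median 9.63), a difference of -3.02 (SE 0.26, adjusted p = 1e-08). The kinase Zap70 differed by -2.52, Themis by -3.23, Thy1 by -2.81 and Prkcq by -3.35 (SE at most 0.28, largest adjusted p = 9.97e-09).

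Regulators of naive and memory T cells fell in 13 of 16 cases. Dapl1, the largest of the 12 falls above, had 6.03 to 7.48 (median 6.58) in the lymphoma nodes, against 7.91 to 11.79 (median 10.29), a difference of -4.64 (SE 0.38, adjusted p = 6.85e-09). Bcl11b, which fixes T cell identity, had 7.07 to 8.21 (median 7.54), against 9.12 to 10.91 (median 9.94), a difference of -2.95 (SE 0.21, adjusted p = 1.57e-09). Txk and Actn1 differed by -2.81 and -2.86 (SE at most 0.27, largest adjusted p = 4.81e-08). Of 18 genes of regulatory and follicular helper T cells, 13 fell, with a median of -1.14. Foxp3, the factor of regulatory T cells, had 6.40 to 7.99 (median 6.79) in the lymphoma nodes, against 7.42 to 8.70 (median 8.15), a difference of -1.44 (SE 0.29, adjusted p = 0.000747), and these ranges overlap. Sh2d1a, the adaptor SAP, differed by -2.34, Gpr83 by -2.01, Tnfrsf18 (GITR) by -1.48 and Tox by -2.03 (SE at most 0.26, largest adjusted p = 4.01e-06). With the tissue covariates 4 of these 18 were called.

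Of 21 cytotoxic and NK cell genes, 13 fell. Cd226, an activating receptor, had 5.21 to 6.25 (median 5.71) in the lymphoma nodes, against 7.72 to 8.81 (median 7.99), a difference of -2.75 (SE 0.18, adjusted p = 2.89e-10). Ctsw, a protease of killer cells, differed by -2.65, the interleukin-2 receptor chain Il2rb by -2.04 and perforin, Prf1, by -1.57 (SE at most 0.24, largest adjusted p = 7.64e-07). The 8 members that were not called, 3 granzymes among them, ranged from -0.54 to 0.98. Homing receptors and integrins fell in 12 of 17 cases. Itgb7, the integrin chain of gut-homing lymphocytes, had 6.75 to 7.89 (median 7.54), against 9.02 to 10.42 (median 9.44), a difference of -2.67 (SE 0.21, adjusted p = 3.8e-09). Ccr7, which guides T cells, B cells and dendritic cells into the T zone, had 8.74 to 10.37 (median 9.30), against 9.77 to 12.03 (median 10.73), with overlap, a difference of -2.32 (SE 0.22, adjusted p = 4.99e-08). S1pr1, the receptor for leaving the node, and the chemokine receptor Cxcr3 differed by -1.54 and -1.83 (SE at most 0.22, largest adjusted p = 1.23e-05). The 2 members that were called higher, Cxcr4 (0.70) and Itga4 (0.88), hold precursors in the marrow. Cxcr4 lost its call without asymptomatic mouse 4 (0.56, adjusted p = 0.106) and without lymphoma mouse 4 (0.64, adjusted p = 0.0538), and Itga4 without lymphoma mouse 5 (0.46, adjusted p = 0.0585). Itga4 was at 0.51 without asymptomatic mouse 6 and 0.48 without lymphoma mouse 3.

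**Figure D4:**
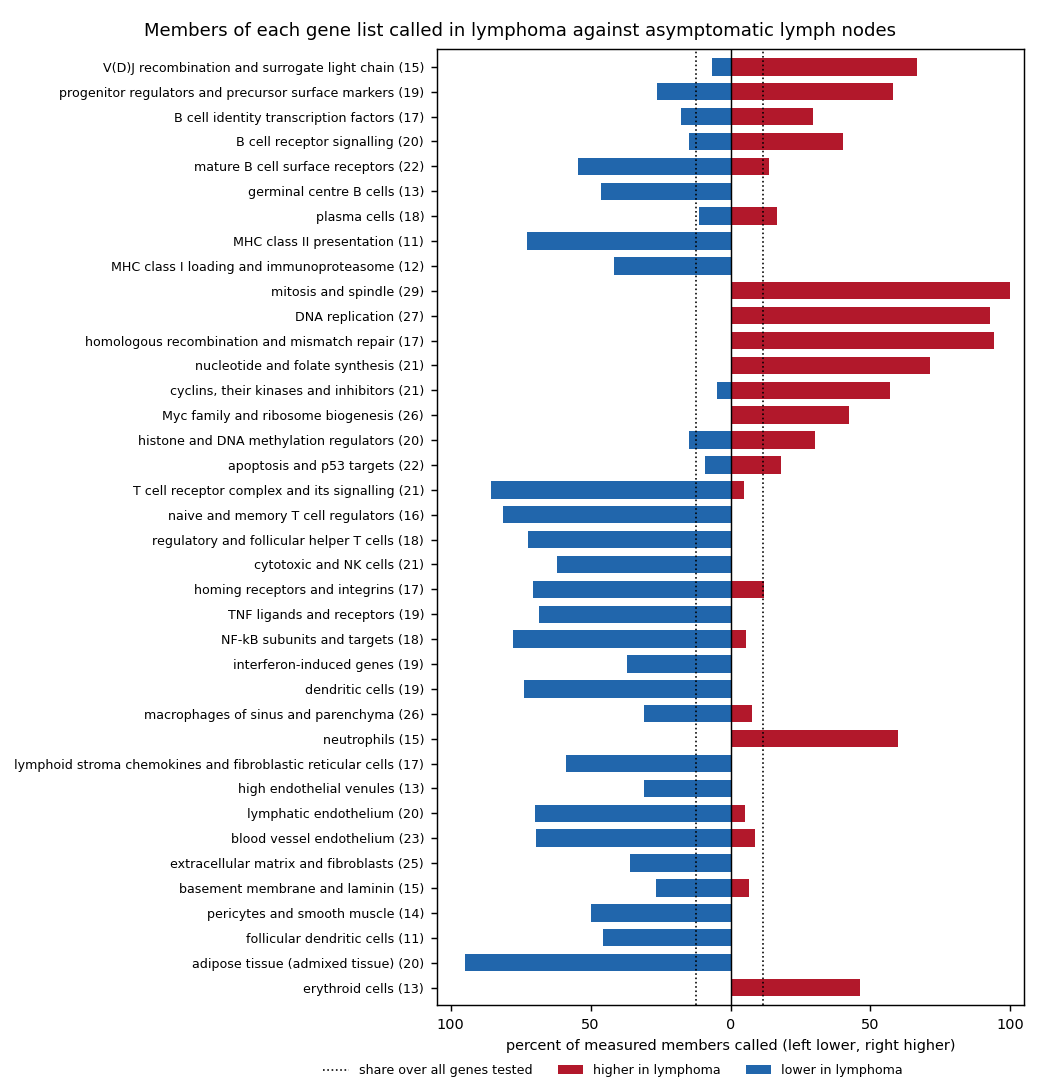
Percent of the measured members of each list that were called higher (right) or lower (left) in lymphoma, with list sizes in brackets and dotted lines at the shares over all genes tested, 11.6% higher and 12.5% lower. The division, replication and repair lists lie almost wholly to the right, and the T cell, MHC class II, dendritic and adipose lists to the left.

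TNF family ligands and receptors were lower in 13 of 19 cases and higher in 0. Cd27, a costimulator of T cells and memory B cells, had 6.36 to 8.55 (median 7.12) in the lymphoma nodes, against 9.32 to 10.95 (median 9.98), a difference of -3.26 (SE 0.28, adjusted p = 1.42e-08). Cd40lg, the ligand by which T cells engage Cd40, had 4.78 to 5.50 (median 5.17), against 6.00 to 7.81 (median 7.14), a difference of -2.71 (SE 0.24, adjusted p = 1.77e-08), so that ligand and receptor were both lower. Tnfrsf25 and Tnfsf8 (CD30 ligand) differed by -1.74 and -2.15 (SE at most 0.18, largest adjusted p = 8.12e-09). The 6 members that were not called ranged from -0.35 to 0.43. NF-kB subunits and targets fell in 14 of 18 cases, and in 9 without asymptomatic mouse 2 or 4. Traf1, a target of the pathway, had 6.66 to 7.80 (median 6.86), against 8.63 to 9.25 (median 8.87), a difference of -2.04 (SE 0.20, adjusted p = 5.52e-08). Tnip1, an inhibitor, differed by -1.14, Relb and Nfkb2, the subunits of the alternative pathway, by -0.96 and -0.86 (SE at most 0.16, largest adjusted p = 8.6e-05). The 3 that were not called ranged from -0.34 to 0.07, and the inhibitor gene Nfkbib was the 1 member called higher (0.56), a call lost without asymptomatic mouse 1 (0.42, adjusted p = 0.112). With the tissue covariates 4 of the 18 were called lower.

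Interferon-induced genes fell in 7 of 19 cases and rose in 0. The list mean spread more among the lymphoma nodes, 6.91 to 8.73, than among the asymptomatic nodes, 7.95 to 8.56, with lymphoma mice 2 and 6 highest and mouse 4 lowest. Cxcl9, a chemokine induced by interferon gamma, had 6.03 to 7.25 (median 6.24) in the lymphoma nodes, against 7.97 to 9.83 (median 9.68), a difference of -2.09 (SE 0.39, adjusted p = 0.0003). Cxcl10, which shares the receptor Cxcr3, had 5.51 to 6.63 (median 6.14), against 7.28 to 8.29 (median 7.67), a difference of -1.50 (SE 0.20, adjusted p = 6.3e-06). The factor Irf1 differed by -1.26 (SE 0.22, adjusted p = 0.00012). The 12 members that were not called ranged from -0.92 to 0.72. Without asymptomatic mouse 1, 3 members were called lower, and without node and spleen of lymphoma mice 3 and 5 the median changed sign.

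Dendritic cell genes were lower in 14 of 19 cases, 9 without asymptomatic mouse 4. Ccr7, Flt3 and Ly6d, also in lists given above, were among the 14. Fscn1, the actin bundler of mature dendritic cells, had 7.06 to 8.2 (median 7.69) in the lymphoma nodes, against 9.56 to 11.64 (median 11.35), a difference of -3.43 (SE 0.32, adjusted p = 4.06e-08). Ccl22, a chemokine of these cells, had 6.22 to 6.75 (median 6.36), against 7.56 to 9.22 (median 8.59), a difference of -2.50 (SE 0.27, adjusted p = 3.26e-07). Itgae (CD103) differed by -2.15 (SE 0.27, adjusted p = 2.4e-06), and Clec9a, a marker of cross-presenting dendritic cells, by -1.54. Macrophage genes were lower in 8 of 26 cases, against 12.5% of all genes, and higher in 2, against 11.6%. These were Fcgr3 and Cd14 (1.32 and 0.76), which were called in 4 and 5 of the 12 fits that left out 1 array. Fcgr3 was at -0.08 within batch A, and Cd14 at -0.08 with batch in place of the surrogate variables. Timd4, a receptor for dying cells, had 6.35 to 8.45 (median 7.22), against 8.86 to 11.34 (median 10.98), a difference of -2.19 (SE 0.42, adjusted p = 0.000434). Cd209b, of marginal zone and sinus macrophages, had 5.78 to 8.23 (median 7.02), against 9.51 to 12.20 (median 11.72), a difference of -3.45 (SE 0.55, adjusted p = 5.17e-05). Siglec1, of subcapsular sinus macrophages, had 6.24 to 8.05 (median 6.78) in the lymphoma nodes, against 8.01 to 11.02 (median 10.46), a difference of -1.99 (SE 0.41, adjusted p = 0.000814). Marco and Folr2 differed by -1.82 and -2.10 (SE at most 0.41, largest adjusted p = 0.000536). The 16 members that were not called ranged from -0.96 to 0.38. The median was -0.53 in the model and -1.86 in measured levels, and 19 members were called lower with batch as the covariate, 0 with the tissue covariates and 5 without asymptomatic mouse 2 or 4.

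Neutrophil genes ran the other way, and unevenly. Of 15, 9 were called higher and 0 lower, with a median of 1.75. Ngp, a granule protein, had 5.21 to 10.43 (median 7.92) in the lymphoma nodes, against 5.06 to 8.54 (median 5.68), a difference of 3.30 (SE 0.75, adjusted p = 0.00209), and Lcn2 had 6.40 to 10.83 (median 8.84), against 6.37 to 9.13 (median 6.86), a difference of 3.41 (SE 0.69, adjusted p = 0.000648). The groups overlap in all 15 genes, and the list mean was 8.24, 8.15 and 7.20 in lymphoma mice 1, 4 and 6, against 7.49 in asymptomatic mouse 6 and 5.94 to 6.80 in the other nodes of both groups. With batch in place of the surrogate variables 1 member was called, and leaving out asymptomatic mouse 1, 4 or 5, or else lymphoma mouse 1, gave 4 or 5. Mmp9, a collagenase of neutrophils, had 6.61 to 9.46 (median 8.74), against 6.51 to 7.32 (median 7.02), a difference of 2.62 (SE 0.46, adjusted p = 0.000172).

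Reticular stroma, blood vessel and lymphatic genes were mostly lower, while at most 7 of 14 members fell in each other list of the node's frame, and the asymptomatic arrays themselves differed here. Of 17 chemokines and markers of reticular stroma, 10 fell. Il6st, the shared receptor of interleukin-6 signals, had 7.77 to 8.81 (median 8.33) in the lymphoma nodes, against 10.34 to 11.12 (median 10.88), a difference of -2.64 (SE 0.20, adjusted p = 1.83e-09). Cxcl16 had 5.42 to 6.68 (median 5.87), against 7.74 to 8.86 (median 8.53), a difference of -2.32 (SE 0.35, adjusted p = 3.04e-05). Ccl19, which draws Ccr7-bearing cells, had 6.87 to 8.28 (median 7.37), against 8.41 to 11.59 (median 10.78), a difference of -2.0 (SE 0.37, adjusted p = 0.000257). Cxcl13, which draws B cells to follicles, was not called in the model (-1.65, adjusted p = 0.108), with 6.36 to 10.51 (median 8.81) against 10.60 to 12.23 (median 12.04) and no overlap, and it was called without lymphoma mouse 1, 3 or 5 (-2.18, -2.09 and -2.18). With batch in place of the surrogate variables it differed by -3.22 (adjusted p = 0.00235), as with no covariate, the replicate block or mouse as a random effect, and by -4.17 within batch B (adjusted p = 0.0161). It was called too with 2 more surrogate variables (-1.91) and without dim genes (-2.20). Cxcl12 (-1.14, adjusted p = 0.00579) lost its call without asymptomatic mouse 4 (-0.80, adjusted p = 0.163). The list had 6 members called lower without asymptomatic mouse 2, 3 without mouse 4, 5 without mouse 5, 6 without lymphoma mouse 4, 2 with the tissue covariates and 16 with batch in place of the surrogate variables. In batch A alone 2 were called lower and in batch B alone 11.

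Blood vessel endothelium genes fell in 16 of 23 cases, and 14 did not overlap, against 5.81% of all genes. Ptprb, an endothelial phosphatase, had 5.58 to 6.10 (median 5.69), against 6.87 to 9.31 (median 8.69), a difference of -1.57 (SE 0.22, adjusted p = 8.01e-06). Its partner Tek had 5.07 to 5.65 (median 5.42), against 6.38 to 8.12 (median 7.71) (difference -1.42), and Tie1 differed by -1.23. Eng and Erg went against the list, at 1.63 and 2.22. Erg had 9.34 to 10.46 (median 9.99) in the lymphoma nodes, against 6.86 to 8.27 (median 7.77), with no overlap, while Eng overlapped. Lymphatic genes fell in 14 of 20 cases (8 without asymptomatic mouse 4), and Thy1, also in the T cell receptor list, was among them. Lyve1, the hyaluronan receptor of sinus endothelium, had 5.84 to 7.30 (median 6.07), against 7.78 to 10.48 (median 9.71), a difference of -2.29 (SE 0.42, adjusted p = 0.000228). Sema3d and Cldn11 differed by -1.63 and -1.18 (SE at most 0.29, largest adjusted p = 0.000195). Reln, a matrix signal that lymphatic vessels make, was called higher, at 6.62 to 10.003 (median 9.01), against 6.46 to 8.06 (median 7.22), a difference of 2.23 (SE 0.49, adjusted p = 0.00163), a call lost without asymptomatic mice 1 and 6 (1.93, adjusted p = 0.0674). Of 13 high endothelial venule genes, 4 fell, against 12.5% of all genes, among them Glycam1 (-2.86, SE 0.60, adjusted p = 0.000952). Without asymptomatic mouse 1 or 4, 2 were called. With batch in place of the surrogate variables 7 of these 13 were called lower. Within batches A and B, 2 and 12 lymphatic and 7 and 18 blood vessel genes were called lower.

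Matrix and fibroblast genes fell in 9 of 25 cases. Timp2 and Timp3, inhibitors of matrix proteases, had 6.3 to 8.26 (median 7.08) and 5.05 to 6.32 (median 5.75) in the lymphoma nodes, against 9.59 to 10.46 (median 10.02) and 7.50 to 9.63 (median 8.87), with differences of -2.13 and -1.54 (SE at most 0.31, largest adjusted p = 1.61e-05). Lum, a small proteoglycan, differed by -1.77 (SE 0.33, adjusted p = 0.000317). The 16 that were not called, most collagens among them, ranged from -1.68 to 0.43. The count was 3 without asymptomatic mouse 4, 15 without lymphoma mouse 3, and 21 with batch in place of the surrogate variables. In batch A alone it was 3 and in batch B alone 16. The median was -0.49 in the model and -1.04 in measured levels. Pericyte and smooth muscle genes fell in 7 of 14 cases, 3 without asymptomatic mouse 4, with Rgs5 at 5.57 to 7.0 (median 5.82), against 7.06 to 10.35 (median 9.89), a difference of -2.24 (SE 0.35, adjusted p = 3.66e-05), and Des at -1.28. Of 15 basement membrane genes, 4 fell and 1 rose, against 12.5% of all genes lower and 11.6% higher. Without asymptomatic mouse 4 and 3, 1 and 7 were called lower, and 7 without the spleen of lymphoma mouse 4. Itga6, a laminin receptor that T cells also carry, had 7.45 to 8.24 (median 7.70), against 8.82 to 9.90 (median 9.09), a difference of -1.65 (SE 0.14, adjusted p = 6.8e-09). Cr2 and Fcer2a, also in the mature B cell list, were among the 5 of 11 follicular dendritic cell genes that fell. Tnfrsf1a, the TNF receptor these cells need, had 6.49 to 7.33 (median 6.96), against 8.51 to 9.40 (median 9.13), a difference of -1.71 (SE 0.22, adjusted p = 2.55e-06), and Clu had 6.64 to 9.89 (median 7.57), against 9.23 to 11.74 (median 11.36), a difference of -1.77 (SE 0.45, adjusted p = 0.00559). With batch as the covariate instead, 12 basement membrane, 10 follicular dendritic cell and 10 pericyte genes were called lower. Within batches A and B these counts were 1 and 9, 4 and 8, and 1 and 9.

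Stroma, vessels and macrophages shared 1 pattern over the arrays. The endothelium mean was 6.91 to 7.21 in the lymphoma nodes, against 7.37 in asymptomatic mouse 1 and 8.16 to 8.61 in the other asymptomatic nodes. The reticular stroma mean was 6.68 to 7.51, against 7.74 in asymptomatic mouse 1 and 8.52 to 9.12 in the others, and that of macrophages 6.86 to 7.87, against 7.44 and 9.10 to 9.39. Asymptomatic mouse 1 thus had the lowest stromal levels of its group and also the highest T cell mean. The adipose mean was 6.13 to 6.77 in the lymphoma nodes, against 9.12 to 10.70 in asymptomatic mice 2 to 5, 7.02 in mouse 1 and 7.26 in mouse 6. It was thus low in asymptomatic mouse 6, whose endothelium (8.16), reticular stroma (8.52) and macrophage (9.10) means stood at the low end of mice 2 to 6. The node of mouse 6 also had the pancreas mean of 12.94 and the erythroid mean of 9.55. The part of such admixed tissue in its stromal means was not tested. Of 20 adipose genes, 19 were called lower. The fit with the tissue covariates called 527 of all 19938 genes higher and 438 lower. It called lower 1 of 23 endothelium, 1 of 20 lymphatic, 0 of 25 matrix, 0 of 14 pericyte and 1 of 13 venule genes. Lower too were 1 of 15 basement membrane, 2 of 11 follicular dendritic cell, 1 of 20 adipose, 0 of 9 nerve and 0 of 11 mast cell genes. In that fit Il6st, Cxcl16, Itga6 and Tnfrsf1a kept their calls. In the same fit 8 of 15 recombination, 9 of 19 progenitor and 24 of 29 mitosis genes were called higher. So were 15 of 27 replication, 7 of 21 nucleotide synthesis, 10 of 17 DNA repair and 6 of 21 cyclin and kinase genes. Higher too were 3 of 20 chromatin and 2 of 26 Myc family and ribosome biogenesis genes, 2 of 17 B cell factors, 1 of 13 red cell genes and 0 of 15 granulocyte genes. That fit called lower 16 of 21 T cell receptor, 9 of 16 naive and memory T cell, 10 of 21 cytotoxic and 2 of 19 progenitor genes. It also called lower 7 of 22 mature B cell, 2 of 13 germinal centre, 5 of 19 dendritic cell, 3 of 11 class II and 0 of 12 class I genes. Also lower there were 1 of 19 interferon, 6 of 19 TNF family, 6 of 17 homing and 0 of 19 glycolysis genes. The adipose mean, a covariate in that fit, does not overlap between the groups, so it can take up a group difference of any source. The part of the adipose, salivary and pancreas transcripts in these differences was not tested. Ucp1, the uncoupler of brown fat, had 4.98 to 5.36 (median 5.25) in the lymphoma nodes, against 5.93 to 12.08 (median 10.70), and Car3 6.00 to 8.06 (median 7.56) against 8.88 to 13.11 (median 12.93). Both had differences (-3.63 and -3.33) that lost their call with the tissue covariates. Both genes belong to the adipose list, whose mean is a covariate there. This loss, like the adipose count of that fit, was thus largely built into the fit.

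Transferrin receptor, Tfrc, which dividing and erythroid cells use to take up iron, rose, with 9.38 to 10.48 (median 9.73) in the lymphoma nodes, against 6.81 to 8.95 (median 7.54), a difference of 2.40 (SE 0.28, adjusted p = 1.09e-06). Car2, a carbonic anhydrase of red cell precursors, had 8.80 to 11.15 (median 10.86), against 7.81 to 11.60 (median 8.63), a difference of 3.25 (SE 0.41, adjusted p = 2.53e-06), with asymptomatic mouse 6 the highest of all nodes. Of 13 erythroid genes 6 were called higher (2 without the spleen of lymphoma mouse 4). The median was 1.59 in the model and -0.45 in measured levels, and 2 were called higher without any of asymptomatic mice 1, 5 and 6 or lymphoma mice 2, 4 and 5 in turn.

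The same 12 mice also gave spleen arrays, so that the change in node could be set against the change in spleen. The spleen of lymphoma mouse 4 carries the FVB/N code in 1 label field and lymphoma in its others, and was used as lymphoma. Without this array 4999 genes were called in node, and Xrcc4 (-0.32) and Cd14 (0.51) lost their call. Of the 4800 genes called in node, 2378 were also called in spleen in the same direction, where 15.8% of all genes were called. Among the genes picked for their size in node, all 12 largest rises and 8 of the 12 largest falls were. Node and spleen of a mouse are not independent, and both changes come from 1 fit. The difference between the changes was called in 114 of 19938 genes (0.572%), 51 with a more positive and 63 with a more negative change in node. Timp3 changed by -1.54 in node and by 0.25 in spleen, a difference between tissues of -1.79 (SE 0.26, adjusted p = 0.00227). Fabp4 changed by -3.55 in node and -0.79 in spleen (difference -2.77, SE 0.54, adjusted p = 0.0172), with the adipose signal of asymptomatic nodes beside it. Asb2, part of a ubiquitin ligase, had 8.78 to 10.75 (median 10.18) in the lymphoma nodes, against 7.43 to 9.99 (median 8.2), and changed by 1.92 in node and -0.34 in spleen (difference 2.26, SE 0.35, adjusted p = 0.00325). Vpreb3 rose in both tissues, by 3.86 in node and 2.74 in spleen, a difference of 1.12 (SE 0.24, adjusted p = 0.026), with spleens of asymptomatic mice at 9.09 to 9.67. Mfge8 of follicular dendritic cells and macrophages (-1.90), Fscn1 (-1.74), Cyp1b1 (-1.98), Pla2g7 (2.23), S1pr3 (2.58), Serpinb10 (2.27) and Mmp12 (2.02) were the other genes named by the rule. Of these 11 genes, Timp3 was called in all 23 other settings and Fabp4 and Asb2 in 22 of 23, while Vpreb3, Fscn1 and Cyp1b1 were called in 14, 11 and 8 of 23 and Serpinb10 in 14 of 22. The calls of Vpreb3 (0.93) and Fscn1 (-1.45) were among those lost without the spleen of lymphoma mouse 4. The fit behind the 114 calls treats arrays of 1 mouse as independent, and with mouse as a random effect and a batch term the count was 1384. It was 102 without the spleen of lymphoma mouse 4, 987 with batch in place of the surrogate variables and, leaving out a node array, 420 without asymptomatic mouse 1, 52 without asymptomatic mouse 2 and 63 without lymphoma mouse 2.

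**Figure D5:**
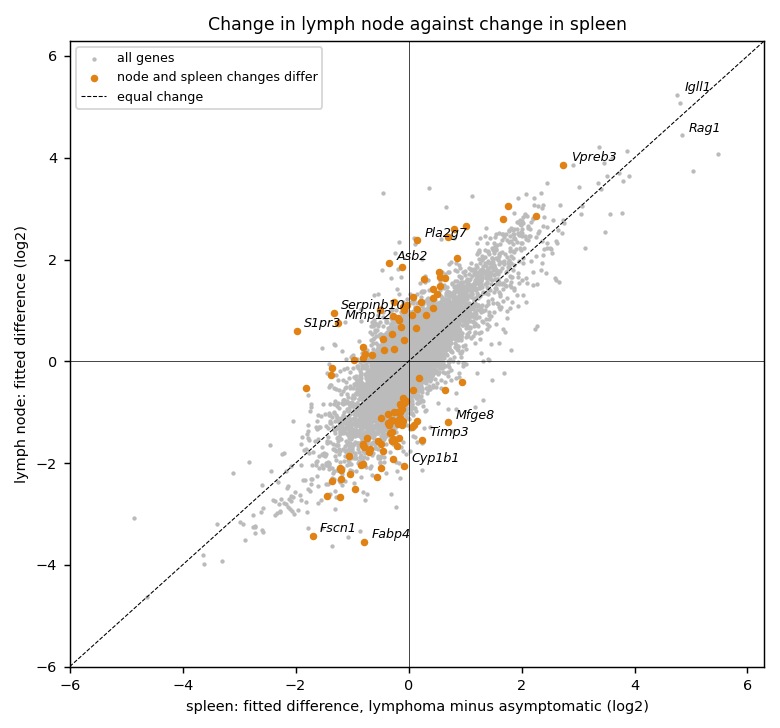
Fitted difference, lymphoma minus asymptomatic (log2), in lymph node (vertical) against spleen (horizontal) for all 19938 genes, with a dashed line where both are equal. The 114 genes whose changes differ between the tissues are in orange, and Igll1, Rag1 and Vpreb3 lie far up in both tissues.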

How the data were processed

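Total RNA of 12 lymph nodes was measured, 1 array per mouse. The authors deposited log2 levels per probe set, normalized by frozen RMA according to the series' design text. A linear model with shrunken standard errors and surrogate variables is mentioned there without its settings. Signal over background was not assessed, and the number of arrays limits the precision. Of 35556 probe sets, 21789 had 1 gene symbol in the platform annotation and 21698 of these matched RefSeq (GRCm38.p6), and the probe set with the highest mean stood for each of 19938 genes. All 30 arrays entered 1 fit of 6 groups with 6 surrogate variables, computed in R 4.3.3 with an iteratively re-weighted algorithm of 5 iterations, and limma 3.58.1 gave differences, standard errors and Benjamini-Hochberg adjusted p over all genes, called under 0.05. The fit was tested on simulated data, where it called 31.3%, 74.6% and 95.5% of changes of 0.5, 1 and 2 log2 units, with 7 false calls. The simulated arrays were built from the fitted surrogate variables. They cannot show how the fit handles tissue signal that differs between the groups. Figures used Python 3.11.15 and matplotlib 3.10.9.

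The 47 gene lists (858 genes, 792 measured) and the comparison were chosen with earlier results of these data known, so that no list is independent evidence. Named genes were the 12 largest rises and falls that were called and did not overlap, without predicted genes, clones, small RNAs and receptor segments, 5 genes in each direction for node against spleen, and up to 4 called members per list plus those needed to describe it. Some further list members were chosen after their values were seen, and calls lost on leaving out arrays are given beside them. With the tissue covariates 74 of 180 called genes in the text lost their call. Alternatives varied the surrogate variables, covariates, scaling, filter and arrays. Replicates are separate mice by the labels.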

Additional observations from a re-analysis of the deposited data

Results flagged for a closer look

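Among 462 sets of 6 nodes of 1 group (genes named in the text and list means), 43 (9.31%) had 1 node far from the other 5 by Dixon's test, where chance gives about 1 in 20. The node of asymptomatic mouse 1 accounted for 22 of these, that of asymptomatic mouse 6 for 7, and no other node for more than 3. The part of cell mixture, node position or handling in these values was not tested.

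Asymptomatic mouse 1 was low for endothelium (7.37), pericyte (6.63) and macrophage (7.44) list means, and for Tek (6.38), Eng (7.87), Sema3d (5.86), Cxcl12 (7.19), Cxcl13 (10.60), Clu (9.23), Mfge8 (10.04), Pla2g7 (6.50), Spi1 (8.81), Cd93 (7.45) and Gas2l3 (6.55). It was high for the NF-kB (9.30), ribosome biogenesis and Myc (9.31) and homing (9.50) list means, and for Ptpn7 (9.01), Ctsw (10.11), Itgb7 (10.42), Itga6 (9.90) and Irf1 (10.28). Asymptomatic mouse 6 was high for the erythroid mean (9.55) and for Cr2 (11.53), Blnk (10.31), Blm (7.55), Spc24 (7.39), Itga4 (10.93) and Car2 (11.60).

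Asymptomatic mouse 4 stood above its group in Igll1 (8.82), Rag1 (7.59) and Hmgcll1 (6.10). Asymptomatic mouse 5 was low in H2-Ea (8.75), as was its spleen (10.30, where the other asymptomatic spleens had 12.21 to 12.43), and high in Gcsam (7.85). Asymptomatic mouse 2 was low in Rag2 (3.74). In the lymphoma group, mouse 6 was high in the mitosis (9.85) and DNA repair (8.31) means and low in the B cell factor mean (9.70), mouse 5 was high in the salivary mean (6.79) and Rgs5 (7.0), and Fcgr2b was low in mouse 3 (8.81), Ptpn7 in mouse 1 (9.06) and Car2 in mouse 2 (8.80).

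The lymphoma change differed between node and spleen, tested as an interaction with limma's adjusted p, in Vpreb3 (1.12), Fabp4 (-2.77), Fscn1 (-1.74), Timp3 (-1.79), Mfge8 (-1.90), Asb2 (2.26), Pla2g7 (2.23), Cyp1b1 (-1.98), S1pr3 (2.58), Serpinb10 (2.27) and Mmp12 (2.02).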

How the results depend on the processing

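The count of 4800 genes (2317 higher, 2483 lower, 1521 by at least 1 log2 unit) moved by over 1.5 times under 4 alternatives. It was 965 (527 higher, 438 lower, 767 by at least 1 log2 unit) with batch and the 3 tissue means as covariates, 2848 (1234 and 1614) with surrogate variables of the 12 node arrays alone, 1380 (740 and 640, with 988 by at least 1 log2 unit) within batch A and 2993 (1339 and 1654) within batch B, where 3 nodes a group were fitted. All 4 used fewer arrays than the main fit, as the fit with the tissue means also held the 12 node arrays alone. The cause of these changes was not tested. Leaving out 1 array in turn gave 3777 (without asymptomatic mouse 4) to 6609 genes, the upper end from fits with a batch term, 1827 to 3588 of them higher, 1879 to 3021 lower and 1391 to 2024 by at least 1 log2 unit. The value of 3588 was that with a batch term and without asymptomatic mouse 1, an alternative chosen after seeing the data. With the mouse number as a replicate block the count was 4861 (2287 higher, 2574 lower, 1789 by at least 1 log2 unit), and same-numbered mice correlated at 0.084 to 0.237, best with their own number for mouse 5 alone, so that the numbers do not pair the samples. The count of genes that differed between node and spleen changes, 114, was 987 with a batch term, 271 without dim genes, 1384 with mouse as a random effect, 674 without asymptomatic mice 1 and 6 (chosen after seeing the data), and 52 to 420 when 1 array was left out. Without the spleen array of lymphoma mouse 4, also chosen after seeing the data, 4999 genes were called in node and 102 between the tissues. Values that changed sign were Dntt (-0.24) and Pla2g7 (-0.15) within batch B, Spn (0.10) within batch B, Fcgr3 (-0.08) within batch A, Xrcc4 (0.01) without lymphoma mice 3 and 5, and Cd14, at -0.20 within batch B and -0.08 with a batch term, a mouse random effect, no covariate or the replicate block. Lef1 was at 0.19 under the same 4 settings, 0.09 within batch A and 0.29 within batch B. Myc was at 0.55 with a batch term or no covariate, where it was called higher, at -0.03 with 2 fewer and 2 more surrogate variables, -0.16 with the tissue means, -0.07 with quantile normalization, -0.17 without lymphoma mice 3 and 5 and between -0.07 and 0.15 when 1 array was left out. Of 180 called genes with values in the text, 165 were called in all 12 fits that left out 1 array, and 106 kept call and direction with the tissue means. The median of a list changed sign in at least 1 setting for the B cell factor, B cell receptor, plasma cell, interferon, apoptosis, epigenetic, glycolysis, erythroid, salivary, pancreas, adipose, muscle, nerve, epithelium and sex-linked lists. Arrays give no read depth, and a dim probe set's difference may be understated.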

Other observations

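Of 22 pancreas genes 0 were called, although the measured median was -2.07 with the signal of asymptomatic mice 5 and 6 in it. Of 20 salivary genes 3 were called higher and 1 lower, and 9 were called higher without asymptomatic mouse 1. Their median was 0.64 in the model but -0.52 in measured levels, and with batch in place of the surrogate variables 0 were called higher and 2 lower. In 13 epithelial genes 1, the adhesion gene Cdh1, was called higher, with 8 without asymptomatic mouse 1 and 4 without asymptomatic mouse 4. The epithelial median was 0.42 in the model and -0.06 in measured levels. Mast cell genes fell in 3 of 11 cases, Schwann cell and nerve genes in 4 of 9, and muscle genes in 1 of 18 (10 without asymptomatic mouse 2), with 1 higher. Glycolysis and hypoxia genes rose in 3 and fell in 4 of 19 cases, 2 without lymphoma mouse 5, against 11.6% of all genes higher and 12.5% lower.

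Asymptomatic mouse 6 had Tlx1, a factor needed to form the spleen, at 8.21 in its node, where the other 11 nodes had 6.02 to 6.42 and the spleens 5.73 to 6.53, besides its pancreas mean of 12.94. Kdm5d, a Y-linked gene, was at 5.78 in the node and 6.3 in the spleen of lymphoma mouse 1, where the Y-linked genes Eif2s3y and Uty were at 9.40 and 7.37 in the node.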
